A study of Zea mays with 12 samples.

Results

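Maize gst2, gst5 and gst31 encode glutathione transferases (GSTs), and their transcripts were followed in developing endosperm with 6 probe sets of an Affymetrix maize array. The probe sets were chosen by gene annotation alone: 1 was annotated to gst2, 1 to gst5 and 4 to gst31, of 17621 probe sets that were not controls. The 3 genes are among 32 GST genes (36 probe sets) found on the array. They were singled out with their differences between genotypes already known, so the differences between the inbreds and between the reciprocal hybrids are given for them as descriptions, with standard errors and without tests.

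Endosperm was taken 19 days after pollination from field-grown plants of the inbred lines B73 and Mo17 and of their reciprocal hybrids, B73xMo17 and Mo17xB73. There were 3 biological replicates per genotype, and the 4 genotypes of a replicate were crossed on the same date, within 30 minutes. Each replicate was a pool of 36 endosperms, 6 from each of 6 ears, on an array of its own, which gave 12 arrays. In naming a cross the female is usually written first, and it was read so here, since the labels leave this unstated.

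Glutathione transferases join the tripeptide glutathione to electrophilic compounds, among them herbicides, and the conjugates are moved into the vacuole. In maize several of these enzymes are induced by herbicide safeners, compounds that protect the crop from a herbicide. The product of gst2 is GST IV, a safener-inducible enzyme that detoxifies herbicides, while gst5 and gst31 are known here by family only. Endosperm is triploid, with 2 genome doses from the mother and 1 from the father. B73xMo17 thus has 2 B73 alleles to 1 of Mo17, and Mo17xB73 has the reverse.

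The values are MAS5 signals on a linear scale, 1 per probe set and array, whose absolute level is not comparable between probe sets. Trimmed means of the arrays ran from 299.7 to 451.6. The first Mo17 array was the dimmest, closely followed by the first B73 array at 302.0. Over the 11747 probe sets bright enough to be tested, the median log2 difference was -0.22 for B73 minus Mo17 and -0.14 for B73xMo17 minus Mo17xB73, and the differences below are to be read against these shifts. The number of arrays limits the precision, and the median standard error of a log2 difference was 0.197. These are whole-endosperm RNA pools, in which fewer cells of a type and less RNA per cell cannot be told apart. Whether the probes bind the transcripts of both lines equally was not tested.

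Transcripts of gst2 were scarce wherever B73 was the mother and several-fold higher wherever Mo17 was the mother. The gst2 probe set had signals of 38.7, 33.2 and 21.6 in the B73 replicates (31.2 ± 8.72, SD, n = 3). In Mo17 the signals were 122, 185 and 209 (172 ± 44.7, SD, n = 3). Every Mo17 array lay above every B73 array. The lowest Mo17 value and the highest B73 value both came from the dim first arrays of those lines. In B73xMo17 the signals were 37.2, 45.1 and 33.9 (38.7 ± 5.79, SD, n = 3), and in Mo17xB73 they were 174, 188 and 142 (168 ± 23.5, SD, n = 3). The 2 hybrids did not overlap, B73xMo17 overlapped with B73, and Mo17xB73 lay within the range of Mo17. The ratio of means was 5.52 for Mo17 over B73 and 4.35 for Mo17xB73 over B73xMo17. On the scale of log2(signal + 10.6), the difference was -2.12 (SE 0.215) for B73 minus Mo17 and -1.86 (SE 0.215) for B73xMo17 minus Mo17xB73. The inbred difference ran from -1.43 on the first crossing date to -2.77 on the third, whereas the hybrid difference stayed between -1.95 and -1.78.

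Transcripts of gst5 had the same direction, with the hybrids further apart than the inbreds. Its probe set had signals of 78.1, 61.8 and 51.8 in B73 (63.9 ± 13.3, SD, n = 3). In Mo17 the signals were 115, 167 and 186 (156 ± 37.0, SD, n = 3). The inbreds did not overlap, and the lowest Mo17 and highest B73 values again came from the dim first arrays of those lines. In B73xMo17 the signals were 77.6, 53.1 and 33.4 (54.7 ± 22.1, SD, n = 3), and in Mo17xB73 they were 217, 191 and 244 (218 ± 26.4, SD, n = 3). B73xMo17 overlapped with B73, but every Mo17xB73 array lay above every inbred array, a pattern held by 1.77% of the tested probe sets. The ratio of means was 2.44 for Mo17 over B73 and 3.98 for Mo17xB73 over B73xMo17. The log2 difference was -1.15 (SE 0.233) for the inbreds and -1.85 (SE 0.233) for the hybrids. By crossing date the inbred difference ran from -1.65 to -0.50 and the hybrid difference from -2.53 to -1.37.

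Of the 4 probe sets of gst31, 3 were higher in Mo17 and Mo17xB73, and the other had its lowest level in Mo17. The probe sets of gst31 are called here by the ends of their names, S1_a_at, S1_x_at, A1_a_at and A1_x_at, and their full names are given in the plot of signals by genotype. The name ending a_at marks probe sets that can bind several transcripts of a gene, and x_at marks those with some probes that can bind other sequences, so the level of gst31 itself is uncertain. S1_x_at had signals of 225, 202 and 249 in B73 (225 ± 23.6, SD, n = 3). It had 778, 858 and 824 in Mo17 (820 ± 40.3, SD, n = 3). The inbreds were far apart compared with the spread in either. In B73xMo17 the signals were 203, 232 and 283 (239.6 ± 40.7, SD, n = 3), and in Mo17xB73 they were 768, 504 and 646 (639 ± 132, SD, n = 3). B73xMo17 overlapped with B73, and all Mo17xB73 arrays lay between the B73xMo17 and the Mo17 arrays. The ratio of means was 3.64 for Mo17 over B73 and 2.67 for Mo17xB73 over B73xMo17, with log2 differences of -1.82 (SE 0.186) and -1.37 (SE 0.186).

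S1_a_at gave the same order of genotypes with smaller ratios. Its signals were 269, 229 and 302 in B73 (267 ± 36.8, SD, n = 3) and 637, 629 and 703 in Mo17 (656 ± 40.3, SD, n = 3). In B73xMo17 they were 218, 277 and 311 (269 ± 46.8, SD, n = 3), and in Mo17xB73 633, 412 and 587 (544 ± 117, SD, n = 3). Neither the inbreds nor the hybrids overlapped, and the second Mo17xB73 array was the low one, as it was for the other gst31 probe sets. The ratio of means was 2.46 for Mo17 over B73 and 2.03 for Mo17xB73 over B73xMo17, with log2 differences of -1.27 (SE 0.194) and -0.98 (SE 0.194).

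A1_a_at resembled both. Its signals were 283, 273 and 328 in B73 (295 ± 29.4, SD, n = 3) and 666, 702 and 549 in Mo17 (639 ± 79.7, SD, n = 3). In B73xMo17 they were 178, 365 and 335 (293 ± 100.7, SD, n = 3), and in Mo17xB73 580.4, 419.9 and 562 (521 ± 87.9, SD, n = 3). The groups were again apart in both pairs, although on the second crossing date the hybrids differed by -0.19 on the log2 scale against -1.65 on the first. The fitted log2 differences were -1.09 (SE 0.226) for the inbreds and -0.86 (SE 0.226) for the hybrids.

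A1_x_at went the other way in the inbreds. Its signals were 286, 253 and 344 in B73 (295 ± 46.2, SD, n = 3) and 157, 165 and 184 in Mo17 (169 ± 13.7, SD, n = 3). In B73xMo17 they were 239, 317 and 302 (286 ± 41.7, SD, n = 3), and in Mo17xB73 464, 274 and 385 (374 ± 95.3, SD, n = 3). All 3 Mo17 arrays lay below the other 9, and both hybrids overlapped with B73 and with each other. The B73 mean was 1.75 times the Mo17 mean, a log2 difference of 0.76 (SE 0.197), and the hybrid difference was -0.36 (SE 0.197) with 1 of 3 crossing dates on the other side of 0.

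**Figure D1:**
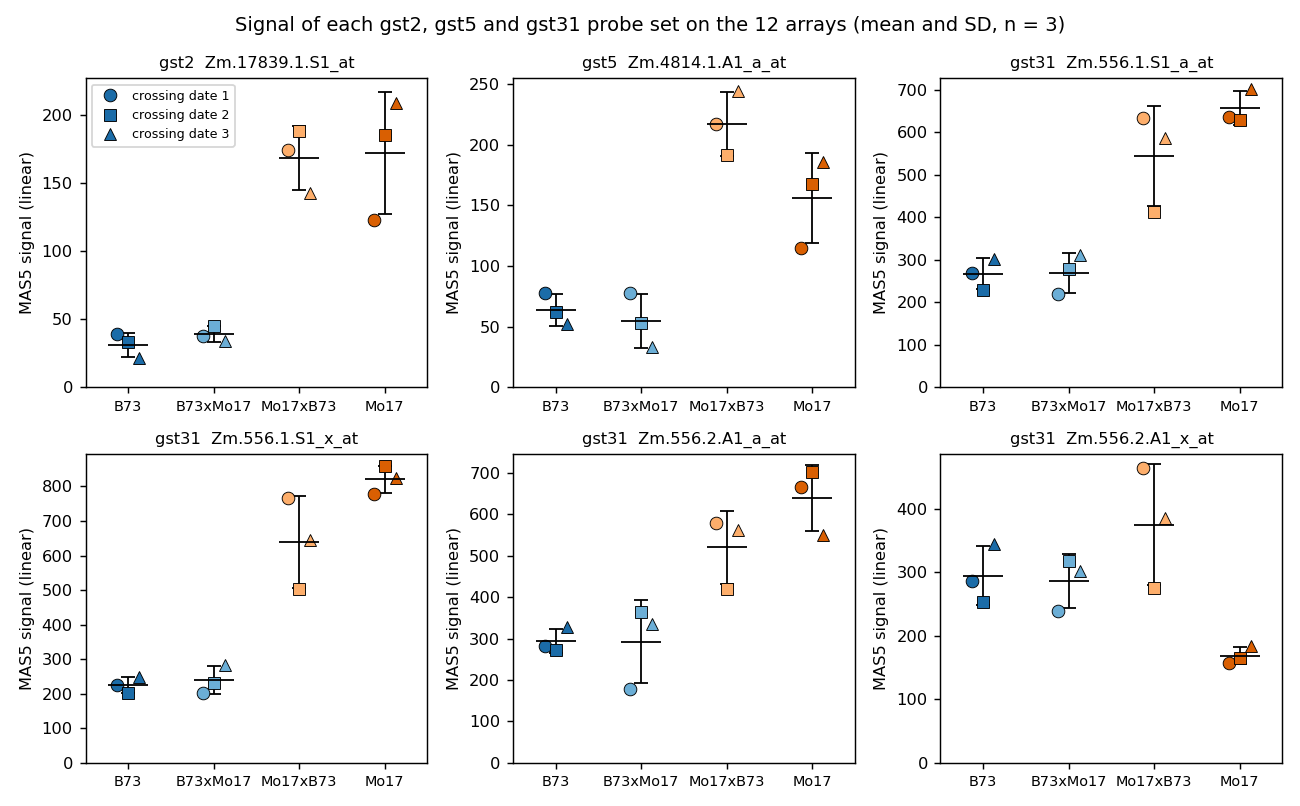
MAS5 signal (linear, vertical axis) of each gst2, gst5 and gst31 probe set in the 4 genotypes, with a symbol per array shaped by crossing date and lines for the mean and SD (n = 3). For 5 of the 6 probe sets the B73 and B73xMo17 arrays lie below the Mo17xB73 and Mo17 arrays, and for A1_x_at the Mo17 arrays are lowest.

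Within a genotype, however, the 4 gst31 probe sets moved together from array to array. S1_a_at and A1_x_at correlated at -0.22 over the 12 arrays and at 0.946 after each genotype's mean was taken out. For S1_x_at and A1_x_at the values were -0.28 and 0.888. The 3 probe sets that share a direction correlated with each other at 0.928 to 0.989 over the arrays and at 0.694 to 0.934 within genotypes. The points are the same 12 arrays, with 8 degrees of freedom left once the genotype means are out, and probe sets of a gene share the RNA and may share probes. Across genes, gst2 and gst5 correlated at 0.918 over the arrays and at 0.536 within genotypes. Over the arrays gst2 correlated at 0.813 to 0.931 with the 3 gst31 probe sets that share a direction, and at -0.24 with A1_x_at. For gst5 these values were 0.672 to 0.826 and -0.047. Within genotypes the gst31 probe sets correlated with gst2 at -0.24 to -0.13 and with gst5 at -0.54 to -0.11.

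Counted over the 6 probe sets, B73 was lower than Mo17 without overlap in 5 and higher without overlap in 1. In the background every Mo17 array lay above every B73 array for 29.5% of the tested probe sets, and the reverse held for 16.2%. Among the hybrids, the same 5 probe sets had all Mo17xB73 arrays above all B73xMo17 arrays and none had the reverse, against 27.6% and 9.13% in the background. Since the genes were selected on these contrasts, nothing is read from the counts.

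**Figure D2:**
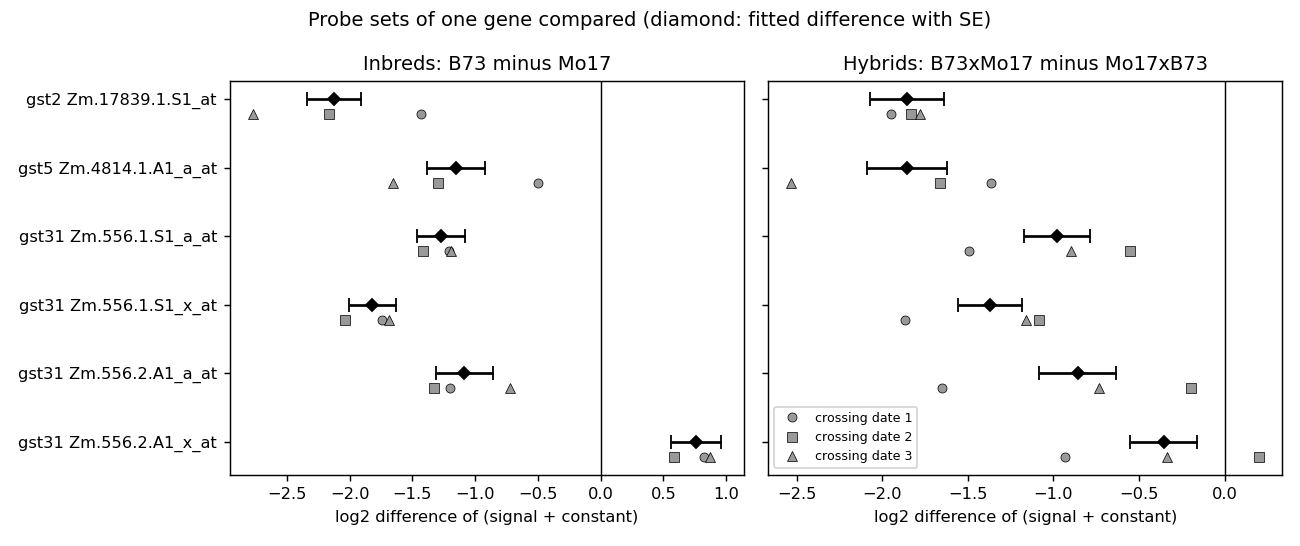
Log2 difference of (signal + constant), horizontal axis, for each probe set between the inbreds (left) and between the hybrids (right), with diamonds and bars for the fitted difference and its SE and grey symbols for the 3 crossing dates. The gst31 probe sets range from -1.82 to 0.76 in the inbreds and from -1.37 to -0.36 in the hybrids.

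The place of each hybrid between its parents was expressed on the linear scale, with Mo17 at 0 and B73 at 1. Additive expression at 2 maternal doses to 1 paternal dose puts B73xMo17 at 0.667 and Mo17xB73 at 0.333. From the genotype means, gst2 lay at 0.946 in B73xMo17 and at 0.0271 in Mo17xB73, so that each hybrid sat close to its mother. By crossing date the gst2 position ran from 0.921 to 1.02 in B73xMo17 and from -0.62 to 0.355 in Mo17xB73. The gst5 position was 1.10 in B73xMo17 and -0.67 in Mo17xB73, outside the parents on both sides, and on the first crossing date, when the inbreds differed least, it reached -2.80 in Mo17xB73.

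The 3 gst31 probe sets that were higher in Mo17 gave 0.976 to 1.01 in B73xMo17 and 0.289 to 0.343 in Mo17xB73. From the means, B73xMo17 thus sat at its mother for gst31. The Mo17xB73 means were near the place that dose gives, but single crossing dates ran from 0.0104 to 0.543 for S1_a_at, from 0.0185 to 0.540 for S1_x_at and from -0.059 to 0.657 for A1_a_at. The inbreds of the other gst31 probe set differed by less than the 2-fold set as the minimum for a position. Of all tested probe sets, 1525 were at least 2-fold higher in Mo17, with a median position of 0.747 in B73xMo17 (quartiles 0.614 and 0.865) and of 0.309 in Mo17xB73 (quartiles 0.134 and 0.431).

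The weight of the female parent that fits both hybrids of a gene at once was 0.960 for gst2, 1.38 for gst5 and 0.832 to 0.853 for the 3 gst31 probe sets. It is computed from total signals, which do not separate alleles, so it is not the share of an allele. The median of those 1525 probe sets was 0.707, the upper quartile 0.804 and the 95th percentile 1.08. All 5 weights were thus above the upper quartile, and only that of gst5 was above the 95th percentile. By crossing date the weight ran from 0.790 to 1.32 for gst2 and from 1.15 to 2.41 for gst5. These weights come from the contrasts on which the genes were selected.

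**Figure D3:**
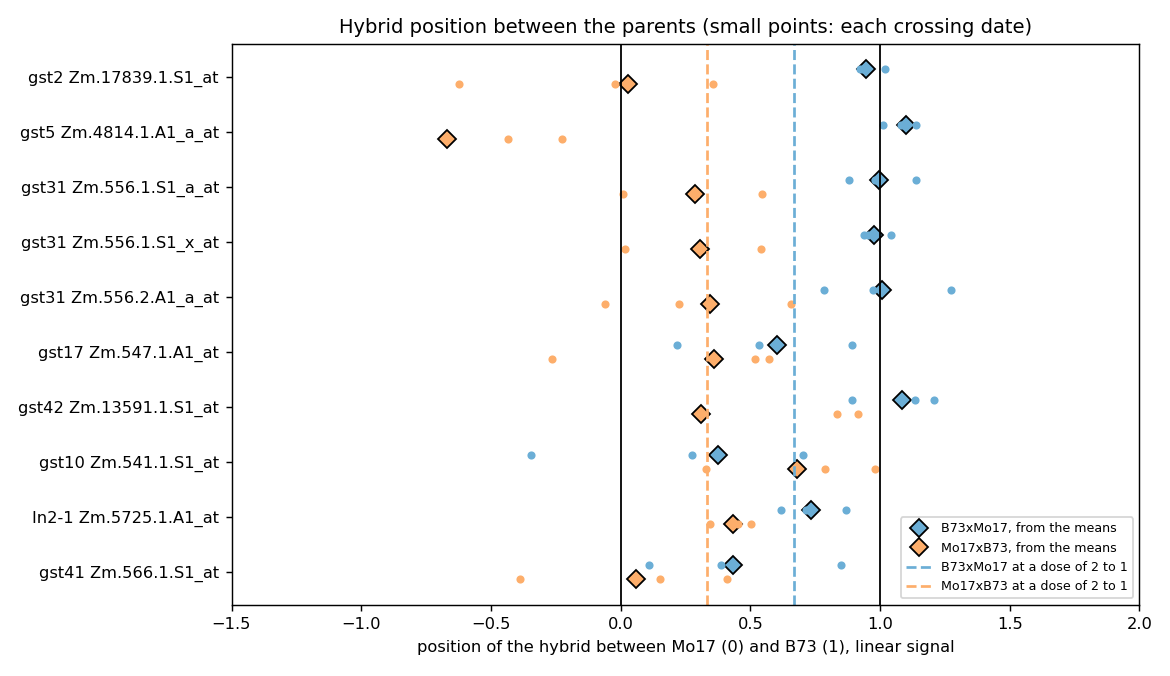
Position of the hybrids between Mo17 (0) and B73 (1) on the linear signal scale, with diamonds from the genotype means, small points for each crossing date and dashed lines at the positions that dose gives, for GST probe sets with inbreds at least 2-fold apart. For gst2 the diamonds lie at 0.946 and 0.0271, and 2 date values, 1 of gst5 and 1 of gst42, fall outside the axis.

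A measure the selection had not used was the summed level of both hybrids against that of both inbreds, which does not depend on the dose of either parent. None of the 6 probe sets passed the test (limma, Benjamini-Hochberg adjustment over all 11747 probe sets), against 0.162% of the tested probe sets, of which 0.153% were higher in the hybrids and 0.00851% higher in the inbreds. The hybrids' level relative to the inbreds' was 0.05 (SE 0.177) on the log2 scale for gst2, a sign that turned with the scaling, to -0.023 after quantile normalization and -0.073 after median centring. It was 0.29 (SE 0.183) for gst5, and between -0.26 and -0.20 for the 3 gst31 probe sets higher in Mo17 (SE 0.146 to 0.168). The adjusted p of these 5 probe sets was 1.00. For A1_x_at the hybrids were at 0.48 (SE 0.142), with an adjusted p of 0.400 and an unadjusted p of 0.00303 in limma. It was the only one of the 6 under 0.05 unadjusted, against 5.56% of all tested probe sets. A1_x_at passed when the expectation was set on the log2 scale, with a difference of 0.52 and an adjusted p of 0.0384 in limma. That setting compares means of log2 levels, which additive dose alone puts above 0 where the inbreds differ, so it is not free of dose.

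Crossing date, which the selection had not used either, was called for none of the 6 probe sets and for 2.26% of all those tested. Between the highest and the lowest date the 6 differed by 0.17 to 0.30 on the log2 scale once genotype was accounted for. Their adjusted p ran from 0.440 to 0.838 in limma, and none had an unadjusted p under 0.05.

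The other 29 GST genes on the array served as the setting for these values, and 12 of them were bright enough to be tested. The other 17 had mean signals of 2.36 to 20.2, among them gst11 and gst12, which lie near gst31 on chromosome 1. With no filter on dim probe sets limma called 2 of these 17, both higher in Mo17: GST26 (-1.19, adjusted p = 0.00483) and GST25 (-0.96, 0.0105). GST25 was then also called higher in Mo17xB73 (-1.14, adjusted p = 0.0171), with signals of 1.28 to 2.94 in B73xMo17, 2.32 to 9.60 in B73, 11.3 to 28.2 in Mo17xB73 and 15.4 to 31.9 in Mo17. Its B73 and B73xMo17 signals were all below the added constant, so the sizes are uncertain. Of the 12, limma called 2 higher in B73 and 5 higher in Mo17, where 13.5% and 29.5% of all tested probe sets were called, 43.1% in all. Their median log2 difference was -0.51 against -0.22 over all tested probe sets. Calls thus fell in both directions, as they did over all tested probe sets, and nothing about the family is read from these counts.

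In2-1, a gene named for its induction by herbicide safeners, was the most different and opposite to gst2. Its signals in B73 were 125, 119 and 128 and in Mo17 13.3, 10.3 and 12.2, a log2 difference of 2.58 (SE 0.190, adjusted p = 8.18e-10, limma). The Mo17 mean of 11.9 was near the added constant and below the filter's 27.4, so In2-1 was tested through the other groups, and the difference ran from 1.49 with a constant of 50 to 3.28 with a constant of 1. In B73xMo17 In2-1 had 94.0 ± 14.5 and in Mo17xB73 60.7 ± 11.5 (SD, n = 3), at 0.733 and 0.435 between the parents. Dose gives 0.667 and 0.333. The hybrid difference of In2-1, 0.56 (SE 0.190), had an adjusted p of 0.0607 in limma. GST3 was also higher in B73, by 0.94 (adjusted p = 0.0244), a call that was lost without the first Mo17 array (adjusted p = 0.156), without the third B73 array (0.114) or with no filter on dim probe sets (0.0677).

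Higher in Mo17 were gst41 (-1.54, adjusted p = 0.000206), gst10 (-1.27, 0.000285), gst17 (-1.06, 9.29e-05), gst42 (-0.98, 0.0117) and gst37 (-0.72, 0.0147), by limma. The B73 means of gst41 (8.26) and gst37 (24.0) were below the filter's 27.4, so both were tested through the other groups. Over the alternatives that kept all arrays, the difference of gst41 ran from -2.35 to -0.68 and that of gst37 from -0.92 to -0.39. Without the third Mo17 array gst42 and gst37 were no longer called (adjusted p = 0.0755 and 0.0794), which left 3 genes. The call of gst42 was also lost without the second B73 array (0.0529) and after trimmed mean scaling (0.0559). The gene gst10 is the nearest other GST gene to gst31 in the current B73 annotation, with 16 genes between them on chromosome 1. Its signals were 38.3, 41.0 and 44.3 in B73 and 81.2, 113 and 161 in Mo17, with Mo17 higher as for 3 of the 4 gst31 probe sets. In the hybrids gst10 had 96.0, 93.6 and 78.8 in B73xMo17 and 39.1, 89.5 and 69.2 in Mo17xB73, the opposite order of means to all 4 gst31 probe sets. That hybrid difference, 0.44 (SE 0.244), did not pass the test (adjusted p = 0.254, limma).

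Between the hybrids 1 of the 12 other genes was called, gst30, and it was higher in Mo17xB73, where 8.79% of all tested probe sets were called. Its signals were 324, 406 and 283 in Mo17xB73 and 182, 86.1 and 90.8 in B73xMo17. These groups did not overlap, and the log2 difference was -1.48 (SE 0.266, adjusted p = 0.00102, limma). In the inbreds gst30 had 142 ± 44.4 in B73 and 208 ± 58.9 in Mo17 (SD, n = 3), with an adjusted p of 0.126. None of the 12 was called higher in B73xMo17, where 3.11% of all were. In2-1 was the 1 gene with an unadjusted p under 0.05 in that direction, and it was called in that direction after each of the 3 scalings, with the replicate block and in 3 other alternatives. The median log2 difference of the 12 was -0.44 against -0.14 over all.

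In the summed hybrid level 0 of the 12 were called, with 0 at an unadjusted p under 0.05, against 5.56% of all tested probe sets. By crossing date limma also called 0, against 2.26% of all tested probe sets. An unadjusted p under 0.05 was held by 2, and nothing is read from this count. Only gst2 of the GST genes on the array lies on chromosome 10 in the current annotation. The gst5 gene is on chromosome 1 like gst31, but the nearest other GST gene to it, gst14, is 4072 genes away.

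**Figure D4:**
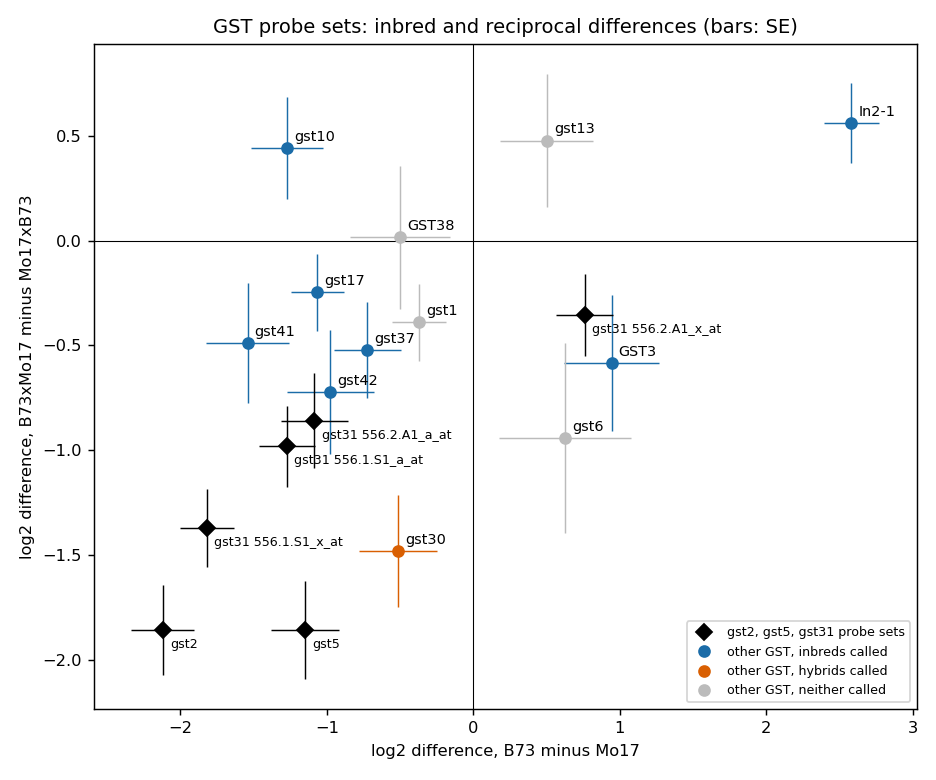
Log2 difference between the hybrids (vertical axis) against that between the inbreds (horizontal axis) for the GST probe sets tested, with bars for the SE, diamonds for gst2, gst5 and gst31 and circles for 12 other genes coloured by whether limma called them. Most of the diamonds lie at the lower left, gst10 lies on the upper left, and In2-1 lies apart at 2.58 and 0.56.

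Genes that supply or use glutathione, or that act on reactive oxygen and other reactive compounds, are the wider pathway of these enzymes. Their lists were chosen with earlier results of these data known, so the counts given for them are descriptions. In the list for glutathione and ascorbate, 1 of 4 tested genes was called in each comparison, against 43.1% of all tested probe sets between the inbreds and 11.9% between the hybrids. It was glx1, which encodes a glyoxalase that uses glutathione to remove methylglyoxal. It was higher in Mo17 (-0.79, adjusted p = 0.00147, limma) and in Mo17xB73 (-0.69, adjusted p = 0.0170). The latter call was lost without the second B73xMo17 array (0.0808) or the third Mo17xB73 array (0.0997). The median of the list was 0.06 between the inbreds and -0.22 between the hybrids.

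Of 9 tested genes for reactive oxygen, 2 were called higher in B73 and 5 higher in Mo17, and 2 were called higher in Mo17xB73. Over all tested probe sets 13.5%, 29.5% and 8.79% were called in these directions. Both of the latter, thioredoxin h gene trxh1 and peroxiredoxin gene per-1, were among those higher in Mo17. The log2 differences of trxh1 were -1.22 and -1.10 (adjusted p = 4.83e-05 and 0.00109, limma), and those of per-1 were -2.30 and -2.21 (0.000181 and 0.00157). The median of the list was -0.82 between the inbreds and -0.17 between the hybrids.

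The 4 genes of the detoxification list bright enough to be tested were all opr genes, which encode oxophytodienoate reductases. The list thus stands here for 1 gene family only, and not for detoxification at large. Of the 4, 3 were called higher in Mo17 and 2 higher in Mo17xB73, against 29.5% and 8.79% of all tested probe sets. The gene opr1 differed by -3.34 for B73 minus Mo17 and by -2.41 for B73xMo17 minus Mo17xB73 (adjusted p = 5.58e-09 and 1.28e-05, limma). Its relative opr8 was called in the inbreds (-0.85, adjusted p = 0.00382). The related gene opr5 was called in the hybrids (-0.90, 0.0157), a call lost without any of B73xMo17 replicates 2 and 3 and Mo17xB73 replicate 3 (0.0531 to 0.109), with no filter (0.0551) or after trimmed mean scaling (0.0596). The median of the list was -0.74 between the inbreds and -0.54 between the hybrids. The anthocyanin list held 4 tested genes, some of whose pathway products are carried to the vacuole with the help of a GST. At their brightest probe sets none was called in either comparison, against 43.1% and 11.9% of all tested probe sets. None had an unadjusted p under 0.05. A second p1 probe set had signals of 6.48 to 24.8 in B73 and 26.7 to 68.3 in Mo17, without overlap, as 29.5% did. It had 28.6 to 36.3 in B73xMo17 and 38.6 to 60.0 in Mo17xB73, without overlap, as 27.6% did. In the summed hybrid level no gene of these 4 lists was called. An unadjusted p under 0.05 was held by 1 gene of the detoxification list, opr1, against 5.56% of all tested probe sets. By date trxh2 was called (adjusted p = 0.0117, limma). That call was lost after quantile normalization (0.0591), with no filter (0.0705), with no trend (0.0560) and without B73 replicate 1 (0.0823).

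Among named genes, those with the pattern most like each GST gene over the 12 arrays were found by Pearson correlation of log2 levels. For gst2 these were bap1-b (r = 0.980, Spearman rho 0.944), meg2 (0.975, 0.916) and sfp1 (0.967, 0.909), the first 2 of them genes of the basal endosperm transfer layer, the tissue through which nutrients enter from the mother plant. For gst5 they were gln2, a glutamine synthetase gene (0.992, 0.986), PDC, which encodes pyruvate decarboxylase (0.970, 0.895), and yptm3, which encodes a small GTP-binding protein (0.948, 0.916). For gst31, taken at S1_x_at, they were the beta tubulin gene TUBB2 (0.975, 1.00), opr1 (0.966, 0.923) and the MADS-box gene MADS11 (0.963, 0.769).

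The points share their arrays and fall into a low and a high set by mother, and no test is given. With genotype means taken out the correlation remained 0.956 between gst5 and gln2, 0.802 between gst5 and PDC, and 0.784 between gst31 and TUBB2. It was 0.636 to 0.709 for the 3 genes most like gst2, and 0.356 and 0.303 for gst31 with opr1 and MADS11. The signals of gln2 were 112 in B73, 245 in Mo17, 89.6 in B73xMo17 and 326 in Mo17xB73 on average, so like gst5 it was highest in Mo17xB73.

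**Figure D5:**
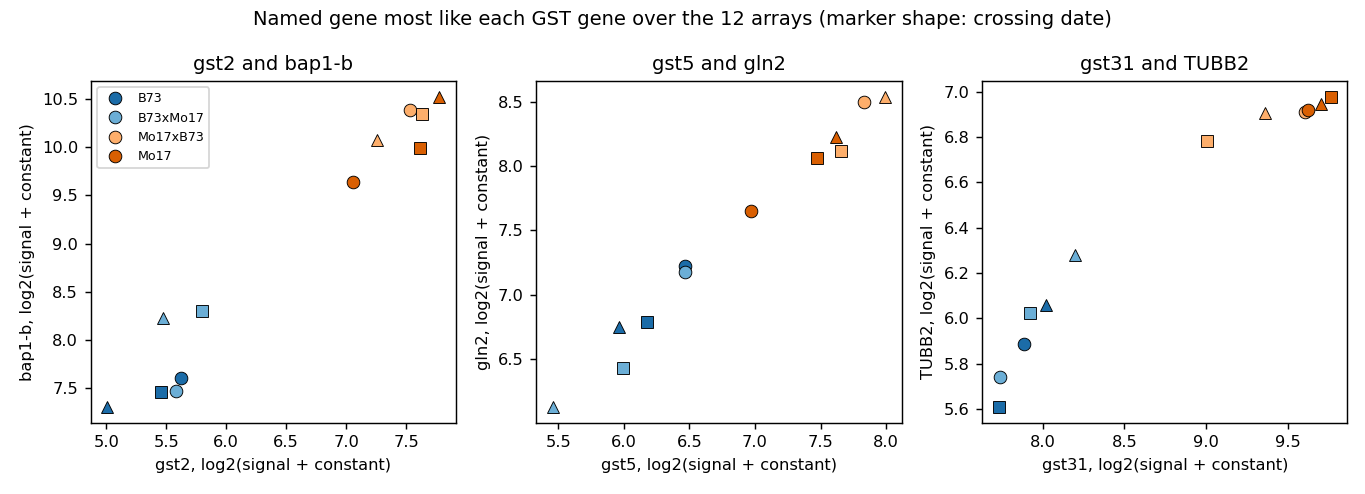
Log2(signal + constant) of the named gene most like each GST gene (vertical axes) against that of gst2, gst5 or gst31 at S1_x_at (horizontal axes), with 1 symbol per array, coloured by genotype and shaped by crossing date. The gst5 and gln2 values also follow each other within genotypes, with a correlation of 0.956 once genotype means are taken out.

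Markers of the transfer layer, and less cleanly those of the embryo, were higher in Mo17 and Mo17xB73. The 8 transfer layer markers summed to 2315 to 2710.2 in B73 and 2842 to 3915 in B73xMo17, against 5991 to 12508 in Mo17 and 10199 to 12137 in Mo17xB73. Such sums are led by their brightest markers, since levels are not comparable between probe sets. Of the 8, 6 were called higher in Mo17 and 7 higher in Mo17xB73 (limma), against 29.5% and 8.79% of all tested probe sets, with median log2 differences of -1.77 and -1.91. The marker lists were chosen with earlier results of these data known, so their counts are descriptions. Examples are bap1-b (-2.60 and -2.28), meg2 (-2.33 and -2.05) and BET1 (-1.83 and -1.47). The 5 embryo markers summed to 441 to 858 in B73 and 582 to 1682 in B73xMo17, against 1254 to 2278 in Mo17 and 1779 to 2611 in Mo17xB73. The first B73xMo17 array, at 1682, lay above the first Mo17 array, at 1254, so the embryo sums did not separate all arrays by mother. Of 3 tested, 3 were called higher in Mo17 and 2 higher in Mo17xB73, against the same 29.5% and 8.79%. The embryo markers too dim to test did not follow the mother in their means. The inbred call of a4Lea was lost without Mo17 replicate 2 or 3, without B73 replicate 2 or with only the inbreds in the fit (adjusted p = 0.0532 to 0.134, limma). The calls in both comparisons were the globulin gene glb1 (-2.23 and -2.35) and the oleosin gene ole1 (-1.55 and -1.37), the latter lost without any of replicates 2 and 3 of either hybrid (adjusted p = 0.0799 to 0.143) and in 3 other alternatives. The part of these cell types in the gst2, gst5 and gst31 values was not tested.

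The other markers did not separate the arrays by mother as the transfer layer markers did. The 4 aleurone markers summed to 455 to 1926 in B73, 557 to 902 in Mo17, 323 to 1402 in B73xMo17 and 1223 to 1948.5 in Mo17xB73. Of these, 2 were called higher in B73, against 13.5% of all tested probe sets, led by PLTP (3.41, adjusted p = 6.58e-05, limma). The other, cr4, was lost in 6 alternatives (adjusted p = 0.0505 to 0.0743), 5 of them without Mo17 replicate 1 or 2 or any B73 replicate. The aleurone gene per-1, given above, was the 1 called higher in Mo17 and the 1 called higher in Mo17xB73, against 29.5% and 8.79%. The 3 markers of green or maternal tissue summed to 130 to 201 over all arrays. Of 2 tested, 1, psah1, was called higher in B73 (0.81, adjusted p = 0.00611, limma), against 13.5% of all tested probe sets. Between the hybrids none was called and none had an unadjusted p under 0.05. The 8 starchy endosperm markers summed to 44903 to 55652 in Mo17 and to 60428 to 78321 in the other genotypes. Among them 3 were called higher in B73, against 13.5% of all tested probe sets, led by the zein gene dzs18 (8.23) and the regulator gene o2 (4.15). The rest were not called between the inbreds (adjusted p = 0.182 to 0.924, limma), so the lower Mo17 sum does not hold marker by marker. A second o2 probe set differed less, with means of 1277 in B73 and 776 in Mo17. Between the hybrids o2 was called higher in B73xMo17 (0.70) and z1C1_12 higher in Mo17xB73 (-0.95), against 3.11% and 8.79% of all tested probe sets. The o2 call was lost without any of B73xMo17 replicates 1 and 3 and Mo17xB73 replicates 2 and 3 (adjusted p = 0.0959 to 0.186, limma) or with no filter (0.0647). On average dzs18 was at 15200 in B73 but had signals of 24.2 to 81.3 in Mo17. Only glb2, an embryo globulin gene, had a mean under the added constant, in Mo17. In the summed hybrid level none of these markers was called. An unadjusted p under 0.05 was held by 3 transfer layer markers and 1 endosperm marker, against 5.56% of all tested probe sets. By date the endosperm gene bt2 was called (adjusted p = 0.0278, limma). That call was lost in 7 alternatives, with no filter (0.137), no trend (0.145) or any of Mo17 replicates 1 and 3, B73 replicates 1 and 3 and Mo17xB73 replicate 3 left out (0.0559 to 0.130).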

How the data were processed

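The deposited intensity values, 1 linear signal per probe set and array, were made by the authors with MAS5, per the submitters' processing notes. No version, scaling target or detection call is given in the sources used here. From these values, 113 control probe sets of 17734 were left out. The dimmest 33.3% of the other 17621 by mean signal (under 27.4) were not tested, which left 11747. Before log2 was taken, 10.6 (percentile 20 of all values) was added to each signal, which understates folds of dim probe sets. One fit of 4 genotypes was made with limma 3.58.1 in R 4.3.3 (lmFit, eBayes with a mean-variance trend), which left 8 residual degrees of freedom (19.8 once the prior is counted). Tests were two-sided, adjusted by Benjamini-Hochberg over all tested probe sets, with a threshold of 0.05. The summed hybrid level was log2 of the hybrids' sum minus log2 of the inbreds' sum, with its SE from the delta method. Crossing date was tested by an F test beside genotype. The steps were tested on simulated data.

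The platform's annotation gave 1 gene for 1452 probe sets, several for 1 and none for 16281, and 1377 were found in the current gene table (Zm-B73-REFERENCE-NAM-5.0), used for names and neighbours only. The genes and lists were chosen with earlier results of these data known. Named were all gst2, gst5 and gst31 probe sets, every other GST gene called, the 2 called genes with the smallest p per list and comparison, the brightest embryo, transfer layer and green tissue markers, and the 3 named genes most like each GST gene. A gene with several probe sets was taken at its brightest. The genes gst11, gst12 and gst14 were named for their place, and p1, glb2, a4Lea, cr4, GST25 and GST26 were named after their values were seen.

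Per the labels, arrays with the same replicate number share a crossing date. Once genotype means were taken out, same-date arrays had correlations of 0.0434 to 0.412 (13 of 18 pairs over 0.1), and arrays of different dates -0.32 to 0.167 (36 pairs). The fit had no block, and the replicate block was an alternative, beside 3 scalings, 2 other constants, 2 other filters, no trend, the compared groups alone, every probe set of a gene, a log2 expectation and each array left out. The spread behind each p-value is that between pools of separate crosses.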

Additional observations from a re-analysis of the deposited data

How the results depend on the processing

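No gst2, gst5 or gst31 probe set changed direction between the inbreds or between the hybrids under any alternative. The inbred difference moved beyond the replicate spread for gst31 S1_a_at after quantile normalization (-1.03), for gst31 S1_x_at after quantile normalization (-1.57) and trimmed mean scaling (-1.61), and for gst2 with an added constant of 1 (-2.43) or 50 (-1.44). With a constant of 50 the hybrid difference was -1.30 for gst2 and -1.37 for gst5. With 1 array left out, the gst2 inbred difference ran from -2.33 to -1.94. In the summed hybrid level gst2 turned to -0.023 after quantile normalization and -0.073 after median centring, and ran from -0.13 (without the first Mo17 array) to 0.16 with 1 array left out. gst31 A1_x_at passed with the expectation on the log2 scale (0.52), a setting that is not free of dose.

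The replicate block changed no call of a gst2, gst5 or gst31 probe set. With the block 1 other GST gene was called higher in B73xMo17 (0 without it), and 2 list genes (1 without it). Also 1 other GST gene was called higher in B73xMo17 with any of the 3 scalings, a constant of 50 or no trend, and 0 to 1 with an array left out. Called higher in Mo17xB73 were 2 with no filter and 1 to 2 with an array left out. Between the inbreds, other GST genes called higher in B73 fell from 2 to 1 with no filter and 0 under a stricter filter on dim probe sets (50%) (range 1 to 2 with an array left out), and those higher in Mo17 from 5 to 1 under the stricter filter (range 3 to 7). In the summed hybrid level 1 was called higher with the log2 expectation, and by date 0 to 1 with an array left out.

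List genes called higher in B73 numbered 8, but 13 with every probe set and 5 under the stricter filter. Those higher in B73xMo17 numbered 4 (quantile), 3 (median), 6 (trimmed mean), 2 (constant of 50) and 2 (compared groups alone), and 0 to 2 with an array left out. In the summed hybrid level they numbered 1 (constant of 50) and 2 (log2 expectation) against 0, and 0 to 1 in either direction with an array left out. By date they numbered 5 (median), 4 (trimmed mean), 0 (no filter), 4 (stricter filter) and 0 (no trend) against 2, and 1 to 4 with an array left out. The causes were not tested. Over all probe sets, calls split as 1590 higher in B73 and 3468 higher in Mo17, but 2702 and 2996 after quantile normalization, 2441 and 3083 after median centring and 2745 and 2893 after trimmed mean scaling. Calls between the hybrids split as 365 higher in B73xMo17 and 1033 higher in Mo17xB73, but 1341 and 1197, 1075 and 941, and 1264 and 1091. With 3 arrays per genotype and no detection calls, values of dim GST genes, compared only with no filter, are uncertain.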
